A study of Mus musculus with 30 samples.

Results

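MEL (murine erythroleukemia) cells, an established mouse line halted early in the erythroid lineage, resume maturation and make hemoglobin when DMSO is added to the medium. WT MEL cells and Abcb10-null MEL cells, the *Abcb10* knockout of the sample labels, were sequenced untreated at day 0 and after 2 or 5 days in 1.5% DMSO, with 5 libraries for each genotype and day. The question here was which transcripts changed differently by genotype over the late part of differentiation. For each gene, the change from day 2 to day 5 in WT cells was subtracted from the same change in Abcb10-null cells. The 20 libraries of days 2 and 5 entered this contrast, out of 30 libraries in the series, and the day 0 libraries are given only as a reference. The Abcb10-null cells were a single CRISPR/Cas9 clone (clone 12, targeted in exon 1), while WT was the DS19 clone of MEL cells, so a difference between genotypes cannot be told apart from a difference between these cell stocks. The replicates are labelled as biological, with no further account of how the cultures were separated.

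Abcb10 is a transporter of the inner mitochondrial membrane that erythroid cells need to make hemoglobin. In the last days of erythroid maturation, cells normally take up iron through the transferrin receptor, build heme in a chain of enzymes split between the mitochondrion and the cytosol, load their membrane with red cell proteins and leave the cell cycle under the control of factors such as GATA1 and TAL1. Cells short of amino acids, heme or folding capacity in the endoplasmic reticulum (ER) translate less and make more ATF4, a transcription factor that induces amino acid synthesis, amino acid import and tRNA charging.

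Of 54532 genes in the table, 13956 had enough counts to be tested, and 657 had an interaction at an adjusted p under 0.05 (edgeR quasi-likelihood test, Benjamini-Hochberg). Of these, 247 were positive (1.77% of the genes tested), that is, their change from day 2 to day 5 was more upward in Abcb10-null than in WT cells. The other 410 (2.94%) were negative. Past 0.58 on the log2 scale, the limit the study used for its fold changes, there were 246 positive (1.76%) and 394 negative genes (2.82%). The median interaction over all genes tested was -0.003 on the log2 scale. Of the 657 genes, 230 of the positive and 385 of the negative ones were protein coding.

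A negative interaction most often went with a gene that went up late in WT cells only. Of the 410 negative genes, 154 were higher at day 5 than at day 2 by more than 0.58 (log2) in WT and stayed within 0.58 in Abcb10-null cells. Another 115 stayed within 0.58 in WT and were lower by more than 0.58 in Abcb10-null cells, 20 went up past 0.58 in both genotypes but less in Abcb10-null cells, and 19 went up in WT and down in Abcb10-null cells. In 90 genes both changes were within 0.58, and in 12 both were downward past it. The positive genes were led by the converse, with 116 of 247 lower at day 5 in WT by more than 0.58 and within 0.58 in Abcb10-null cells, 51 within it in WT and higher in Abcb10-null cells, and 43 lower in WT and higher in Abcb10-null cells. These log2 changes are contrasts of the same fit and describe the called genes without a test of their own. The shares of such courses moved with the libraries used, as given under the processing. At day 5, all 5 Abcb10-null libraries were below all 5 WT libraries for 250 of the 410 negative genes and above them for 107 of the 247 positive genes. At day 2 the same held for 18 and 9 genes. In 64 negative genes the Abcb10-null libraries were instead all above WT at day 2 and overlapped with WT at day 5. In 90 positive genes they were all below WT at day 2 and overlapped at day 5. The interaction in these same libraries selected the genes, so part of this separation is built in. The shares over all genes tested are not given here, and the counts describe the called genes only.

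**Figure D1:**
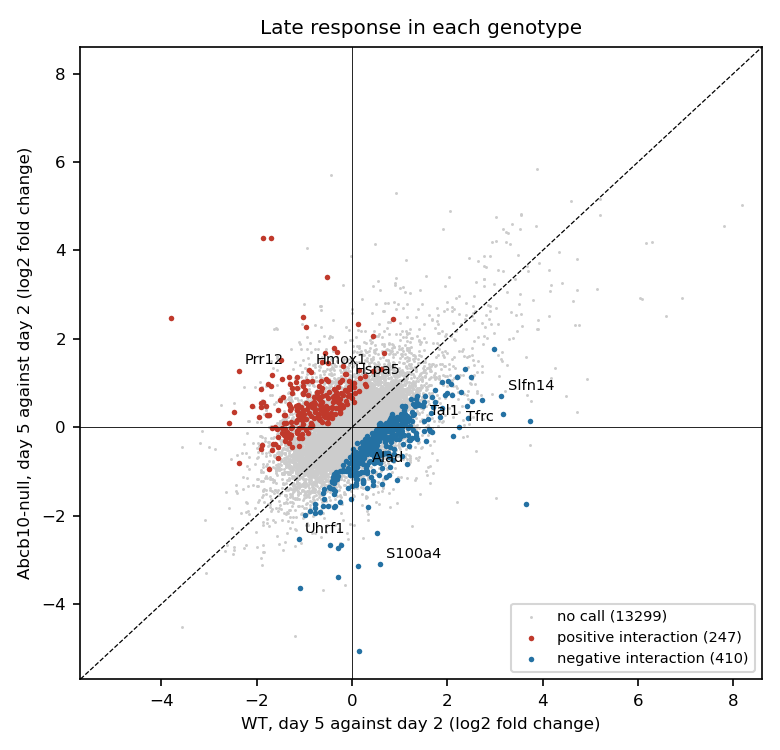
Change from day 2 to day 5 in WT (x axis) and in Abcb10-null cells (y axis), both as log2 fold changes, for the 13956 genes tested. Red points are the 247 genes with a positive interaction, blue points the 410 with a negative one, and the dashed line marks equal change. The red points lie to the upper left of the line and the blue points to its lower right, with *Tfrc* far to the right at a log2 change of 2.25 in WT and -0.01 in Abcb10-null cells.

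Some libraries stood apart. Total counts ranged from 9906783 to 19616273 over the 20 libraries. WT day 5 replicate 5 had 2540 CPM (read counts scaled to library size with TMM factors) of *Tfrc* where the other 4 WT libraries of that day had 8196 to 9896, and its mean log2(CPM + 0.5) over the 30 ATF4 target genes tested was 6.29, against 4.50 to 4.77 in the other 4. Its *Abcb10* level, 1292 CPM, was within the range of the other WT day 5 libraries, 1150 to 1301. Without this library the counts were 765 positive and 587 negative, and they included all 247 positive and 393 of the 410 negative genes. WT day 2 replicates 1 and 2 had 49392 and 52625 CPM of *Gm26917*, against 18628 to 26332 in the other 3 WT day 2 libraries and 5403 to 19872 in the Abcb10-null libraries, and that gene was itself called positive (2.44 ± 0.40, adjusted p = 0.00275). Without both of them 59 positive and 107 negative genes were called, of which 47 and 97 were among the 657. Without these 3 libraries there were 622 and 406, and 164 and 286 of the 657 were among them. In each of these fits, all 657 genes kept the sign of their interaction.

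Base composition moved with the direction of the interaction. The median GC content of the longest transcript was 55.9% in positive genes, 44.6% in negative genes and 49.3% in all genes tested, and the median transcript lengths were 4108, 3525 and 2988 bases. Genes in the top quintile of GC content stood 0.14 to 0.57 above those in the bottom quintile in the WT day 2 libraries (difference of median log2 deviations from the gene means), and the difference was -0.48 to 0.35 in those of WT day 5. In Abcb10-null cells these ranges were -0.36 to 0.09 at day 2 and -0.22 to -0.03 at day 5. With GC and length offsets in the model, 279 positive and 474 negative genes were called, of which 155 and 293 were among the 657. The part of base composition and library quality in single genes was not tested beyond these fits.

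**Figure D2:**
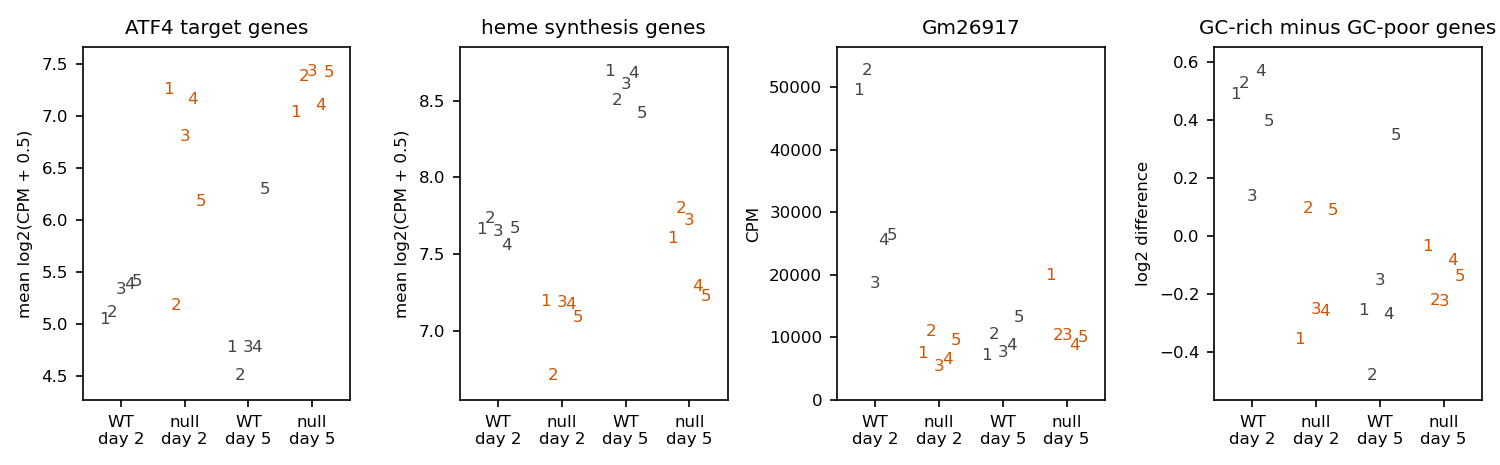
Values in each of the 20 libraries, drawn as replicate numbers: mean log2(CPM + 0.5) of the ATF4 target genes and of the heme synthesis genes, CPM of *Gm26917*, and the log2 difference between GC-rich and GC-poor genes. WT day 5 replicate 5 sits at 6.29 on the ATF4 axis, above the 4.50 to 4.77 of the other WT day 5 libraries, and WT day 2 replicates 1 and 2 sit at 49392 and 52625 CPM of *Gm26917*.

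The cells carried erythroid markers in both genotypes. *Epb42*, a protein of the red cell membrane skeleton, had a mean of 50.3 CPM for WT against 27.8 CPM for Abcb10-null cells at day 2, and 166 and 61.2 CPM at day 5. *Slc4a1*, the band 3 anion exchanger, had means of 6.69 and 3.36 CPM at day 2 and of 528 and 60.7 CPM at day 5. Summed over 19 myeloid and mast cell markers, a library held 24.8 to 75.5 CPM, and over 12 lymphoid markers 3.95 to 22.6 CPM, with none of these markers at 0 in all 20 libraries. The 15 megakaryocyte markers summed to 488 to 1297 CPM at day 2 and 2034 to 3575 CPM at day 5. No gene of these 3 lists had a called interaction, of 8, 1 and 9 tested.

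*Abcb10*, the targeted gene (chromosome 8: 123952459-123983122, minus strand, GRCm38), was itself among the negative genes. WT day 2 libraries had 655, 667, 491, 558 and 520 CPM, and WT day 5 libraries 1277, 1150, 1246, 1301 and 1292 CPM. Abcb10-null libraries had 165, 172, 314, 190 and 186 CPM at day 2 and 236, 244, 238, 180 and 181 CPM at day 5. Every Abcb10-null library was below every WT library on both days, and the transcript was still detected in each Abcb10-null library. The interaction was -1.05 ± 0.22 (log2, SE, adjusted p = 0.0110), from a change of 1.12 ± 0.16 in WT and 0.07 ± 0.16 in Abcb10-null cells.

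Of 18 genes for cellular iron and heme handling, 3 were called, *Tfrc* and *Slc40a1* negative and *Hmox1* positive, and the median of that list was -0.14. Here and in the lists below, called genes are to be read against 1.77% positive and 2.94% negative over all genes tested. *Tfrc* (chromosome 16: 32608920-32632794, plus strand) encodes the transferrin receptor, through which erythroid cells import iron. In WT cells it had 2024, 1991, 1616, 1153 and 1242 CPM at day 2 and 9896, 8196, 8494, 9079 and 2540 CPM at day 5. Abcb10-null libraries had 915, 947, 1204, 897 and 570 CPM at day 2 and 699, 1290, 1115, 624 and 780 CPM at day 5. The WT libraries of day 5 were all above those of day 2, while the Abcb10-null libraries of both days overlapped. The interaction was -2.26 ± 0.40 (log2, SE, adjusted p = 0.00457).

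*Hmox1* (chromosome 8: 75093621-75100589, plus strand) encodes heme oxygenase, which breaks heme down to iron, carbon monoxide and biliverdin, and it went the other way. It had 18.5, 14.01, 17.3, 21.6 and 19.2 CPM in WT at day 2 and 7.64, 5.54, 9.85, 6.35 and 18.8 CPM at day 5. Abcb10-null libraries had 37.0, 12.99, 31.3, 41.6 and 13.7 CPM at day 2 and 55.8, 73.5, 59.7, 51.5 and 91.3 CPM at day 5. The genotypes overlapped at day 2 and were separate at day 5, with an interaction of 2.19 ± 0.45 (log2, SE, adjusted p = 0.00915). *Slc40a1*, the iron exporter ferroportin, had an interaction of -0.81 ± 0.18 (log2, SE, adjusted p = 0.0129), with group means of 44.2 and 74.7 CPM for WT against 38.7 and 37.3 CPM for Abcb10-null cells at days 2 and 5. With GC and length offsets its adjusted p was 0.0638. Of 24 genes of mitochondrial iron and iron-sulfur cluster assembly, 3 were called, all negative, and the list's median was -0.13. Besides *Abcb10* these were *Abcb6*, a porphyrin transporter (-0.99 ± 0.27, adjusted p = 0.0361), and *Isca1*, a scaffold of iron-sulfur cluster assembly (-0.63 ± 0.17, adjusted p = 0.0386). With 1 library left out at a time, *Abcb6* was called in 6 of 20 fits (adjusted p up to 0.113) and *Isca1* in 2 of 20 (up to 0.115).

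Of the 9 enzymes of heme synthesis, 4 had a negative interaction, none had a positive one, and the median was -0.63, against -0.003 over all genes tested. The called enzymes include the cytosolic *Alad* and *Urod* and the mitochondrial *Cpox*.

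*Alad*, which joins 2 molecules of aminolevulinic acid (chromosome 4: 62509169-62519918, minus strand), had 589, 644, 441, 485 and 423 CPM in WT at day 2 and 724, 521, 685, 672 and 561 CPM at day 5. Abcb10-null libraries had 343, 241, 549, 395 and 244 CPM at day 2 and 147, 211, 228, 177 and 169 CPM at day 5. All Abcb10-null libraries of day 5 were below those of day 2, and the interaction was -1.22 ± 0.27 (log2, SE, adjusted p = 0.0134). *Cpox*, coproporphyrinogen oxidase, had an interaction of -1.42 ± 0.37 (adjusted p = 0.0285), and *Urod* one of -0.68 ± 0.18 (adjusted p = 0.0298). *Cpox* stood at 241 CPM in WT day 5 replicate 5, against 682 to 801 CPM in the other 4 libraries of its group, and its call held in 10 of the 20 fits without 1 library. Enzymes of the list without a call include the rate-limiting *Alas2*, whose late change was 3.47 in WT and 3.90 in Abcb10-null cells (interaction 0.43 ± 0.39, adjusted p = 0.564). *Fech*, which inserts iron, had an interaction of -0.51 ± 0.20 (adjusted p = 0.132), and *Ppox* one of 0.63 ± 0.31 (adjusted p = 0.244).

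**Figure D3:**
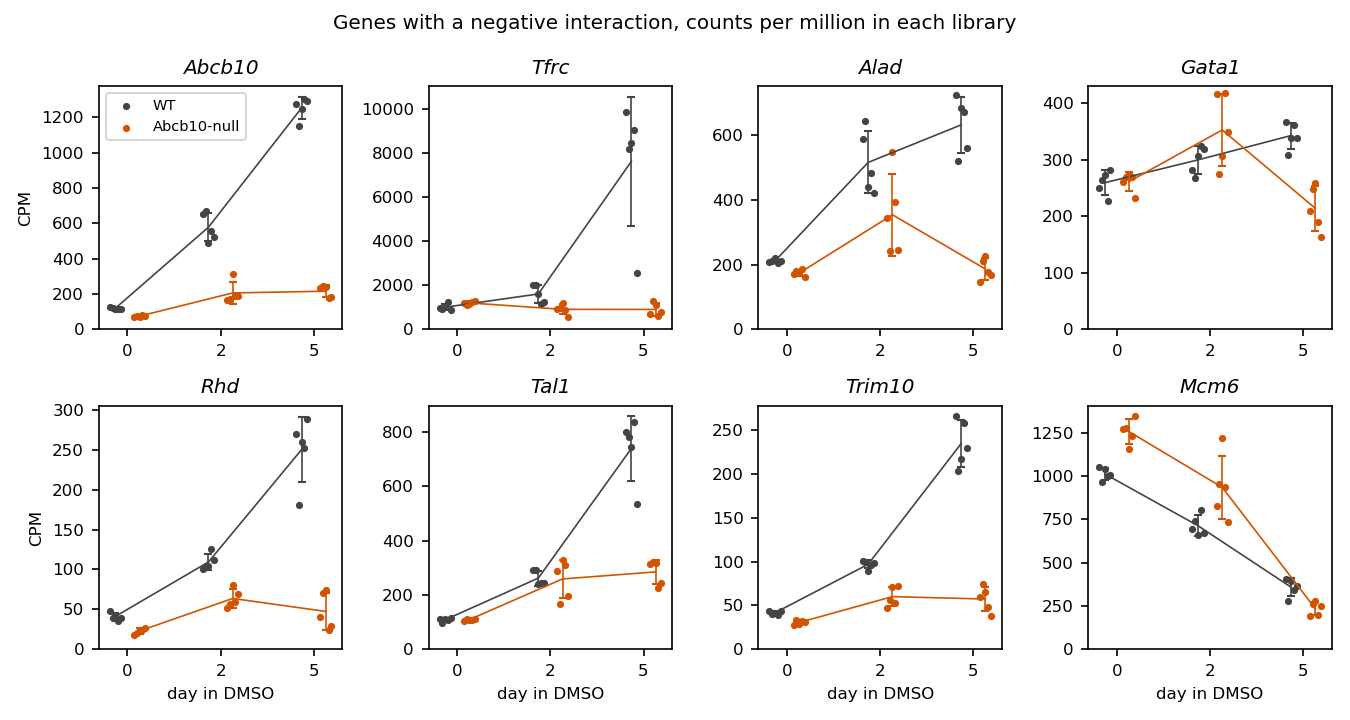
CPM in each library at days 0, 2 and 5 for 8 genes with a negative interaction, WT in grey and Abcb10-null in orange, with lines through the group means and bars of 1 SD (n = 5). At day 5 all Abcb10-null points lie below all WT points in each panel, and in *Tfrc* the WT libraries reach 2540 to 9896 CPM while the Abcb10-null libraries stay at 624 to 1290 CPM. Day 0 CPM were scaled separately from those of days 2 and 5.

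Called transcription factors of the erythroid program were all negative. Of 17 tested, 5 were called, all negative, and the median was -0.61. *Tal1* (chromosome 4: 115056426-115071755, plus strand), a basic helix-loop-helix factor that works in a complex with GATA1, had 291, 292, 241, 242 and 242 CPM in WT at day 2 and 801, 781, 746, 838 and 537 CPM at day 5. Abcb10-null libraries had 288, 168, 330, 310 and 198 CPM at day 2 and 313, 323, 316, 227 and 245 CPM at day 5. The genotypes overlapped at day 2 and separated at day 5, with an interaction of -1.36 ± 0.24 (log2, SE, adjusted p = 0.00456). *Nfe2*, a factor that acts on erythroid gene enhancers, had means of 55.7 and 149 CPM for WT against 52.0 and 73.8 CPM for Abcb10-null cells at days 2 and 5 (interaction -0.91 ± 0.17, adjusted p = 0.00523). *Gata1*, the main erythroid GATA factor, differed in form: it was near level in WT (300 and 343 CPM) and lower at day 5 in Abcb10-null cells (353 and 214 CPM), with an interaction of -0.91 ± 0.19 (adjusted p = 0.0102). The other called factors were *Tfdp2* and *Mxi1*, at -0.71 and -0.69.

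Of 27 red cell membrane genes tested, 5 were called negative (18.5%, against 2.94% of all genes tested) and none positive, with a median of -0.54 and 4 of 27 above 0. *Rhd*, the Rh blood group protein (chromosome 4: 134864536-134896172, plus strand), had 100, 104, 104, 126 and 112 CPM in WT at day 2 and 270, 181, 260, 253 and 288 CPM at day 5. Abcb10-null libraries had 51.4, 56.3, 80.9, 59.4 and 69.7 CPM at day 2 and 39.8, 70.3, 73.6, 23.6 and 29.1 CPM at day 5. The Abcb10-null libraries were below WT on both days, and the interaction was -1.62 ± 0.33 (log2, SE, adjusted p = 0.00874). *Aqp1*, a water channel, had an interaction of -1.48 ± 0.33 (adjusted p = 0.0143), and *Cd47*, a surface protein that protects red cells from being engulfed, one of -1.35 ± 0.24 (adjusted p = 0.00491). *Slc14a1*, a urea transporter, and *Cd24a* were called at -0.84 and -1.12. *Slc4a1* had a fitted interaction of -2.11 ± 0.90 with an adjusted p of 0.172, so its group means above are given without a call.

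Among 23 genes for late erythroid enzymes and other maturation proteins, 7 were negative and none positive, with a median of -0.52. *Trim10*, an erythroid ubiquitin ligase family member (chromosome 17: 36869574-36877833, plus strand), had 100, 100, 89.2, 96.4 and 98.4 CPM in WT at day 2 and 266, 203, 217, 258 and 230 CPM at day 5. Abcb10-null libraries had 47.2, 56.3, 70.9, 53.0 and 72.1 CPM at day 2 and 59.7, 74.8, 64.7, 48.5 and 38.2 CPM at day 5. The WT groups were separate while the Abcb10-null libraries of both days overlapped, with an interaction of -1.34 ± 0.21 (log2, SE, adjusted p = 0.00222). *Hemgn*, a nuclear protein of erythroid cells, had an interaction of -1.26 ± 0.25 (adjusted p = 0.00853). *Tmcc2* went up in both genotypes, from 25.1 to 129 CPM in WT and from 14.2 to 35.1 CPM in Abcb10-null cells (interaction -1.06 ± 0.23, adjusted p = 0.0120). *Car2*, carbonic anhydrase, *Prdx2*, a peroxiredoxin, and *Isca1* were called at -0.92, -0.91 and -0.63. In the Abcb10-null libraries of bulk RNA, fewer maturing cells and less RNA per cell cannot be told apart for any of these genes.

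Promoter sequence was looked at for genes that moved together. In the mouse RefSeq promoters used here (GRCm38.p6, 250 bases before to 50 after each start), 179 of the 247 positive and 316 of the 410 negative genes were matched by symbol, of 9405 genes tested that were matched. The letters AGATAA, the core bound by GATA factors, were found on either strand in 21 of the positive genes (11.7%), in 32 of the negative genes (10.1%, 95% Wilson interval 7.26 to 13.9%) and in 8.21% of all matched genes tested. Over all 32851 promoter windows the share was 11.2%. These intervals cover counting error only. For TGATGNAAT, an ATF4 element, the shares were 0.559%, 0.316% and 0.489%, with 0.965% of all windows. For CCNCNCCC, a CACC motif, they were 78.2%, 64.6% and 72.2%, with 49.5% of all windows. The E2F motif TTTGGCGC was in 0.559%, 0.949% and 1.19%, with 0.514% of all windows, and the E-box CACGTG in 12.3%, 13.9% and 11.9%, with 7.15% of all windows. No motif holds the letters of another. The stretches below are a selection from genes described here in which a motif was found before the start. They are printed 5′ to 3′ on the gene's strand with the motif in capitals. The first 4 are for GATA factors, whose core reads TTATCT on the opposite strand, then come E2F and ATF4. Not printed are a GATA motif of *Fen1*, another E2F motif of *Mcm6* and E-boxes of *Alad*, *Urod*, *Fen1*, *Nop2*, *Slc43a1* and *Lztfl1*. The *Tmcc2* stretch lies before a start inside the annotated gene.
*Rhd*, chr4:134864481-134864510, plus strand: cccggcagcctgAGATAAgacctttggcgg
*Tal1*, chr4:115056209-115056238, plus strand: ctatagagtcttTTATCTttgagcaattcc
*Trim10*, chr17:36869399-36869428, plus strand: agctcaagagccTTATCTgagtccccacac
*Tmcc2*, chr1:132367964-132367993, minus strand: actgggccctccTTATCTcttggaaccttc
*Mcm6*, chr1:128359734-128359763, minus strand: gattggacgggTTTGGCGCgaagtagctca
*Pycr1*, chr11:120643832-120643861, minus strand: gccctgtgtaTGATGCAATgcacaaggctc

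Of 30 ATF4 targets tested, 3 were called positive and none negative, with a median of 0.77. *Eif4ebp1* (chromosome 8: 27260329-27276674, plus strand) encodes a repressor of cap-dependent translation. It had 75.1, 85.2, 137, 145 and 145 CPM in WT at day 2 and 54.8, 37.8, 57.8, 52.2 and 125 CPM at day 5. Abcb10-null libraries had 320, 150, 206, 259 and 182 CPM at day 2 and 248, 310, 335, 297 and 340 CPM at day 5. The Abcb10-null libraries were above WT on both days and further above at day 5, with an interaction of 1.30 ± 0.37 (log2, SE, adjusted p = 0.0423). *Ero1l*, an ER oxidase, had an interaction of 1.14 ± 0.31 (adjusted p = 0.0341), and *Pck2*, the mitochondrial PEP carboxykinase, one of 0.89 ± 0.25 (adjusted p = 0.0412). With 1 library left out, *Eif4ebp1* was called in 6, *Pck2* in 7 and *Ero1l* in 15 of 20 fits. *Atf4* itself had 0.38 ± 0.38 (adjusted p = 0.611).

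This list depended on 1 library. Without WT day 5 replicate 5, 16 of the 30 ATF4 targets were called positive and none negative, and the median was 1.17. Positive calls over all genes tested also grew without that library, from 247 to 765. In that fit *Phgdh*, *Psat1* and *Psph*, which make serine, had interactions of 2.51, 1.31 and 1.82 (adjusted p = 3.80e-05, 0.00280 and 0.00347), *Chac1*, which degrades glutathione, one of 2.67 (adjusted p = 0.0110) and *Asns*, asparagine synthetase, one of 1.05 (adjusted p = 0.0375). *Atf4* had 0.79 (adjusted p = 0.119), and *Ddit3*, which encodes CHOP, -0.18 (adjusted p = 0.889). These genes were chosen after their values were seen, and the library was singled out partly by its values on this same list. The gain in calls is therefore partly built in, and these adjusted p are no independent support. The Abcb10-null libraries of day 2 also varied on this list, from a mean log2(CPM + 0.5) of 5.17 in replicate 2 to 7.25 in replicate 1, against 5.04 to 5.40 in WT. At day 5 they ranged from 7.02 to 7.42.

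Positive calls for amino acid import and tRNA charging also depended on WT day 5 replicate 5, as did those over all genes tested. Of 25 amino acid transporters, 1 was positive and 1 negative, with a median of 0.29. *Slc7a1*, the arginine transporter CAT1 (chromosome 5: 148327410-148399904, minus strand), had 141, 141, 74.7, 95.6 and 93.8 CPM in WT at day 2 and 35.6, 52.8, 30.8, 32.7 and 70.5 CPM at day 5. Abcb10-null libraries had 139, 88.9, 110, 122 and 77.2 CPM at day 2 and 151, 162, 163, 117 and 151 CPM at day 5. The genotypes overlapped at day 2 and separated at day 5, with an interaction of 1.76 ± 0.31 (log2, SE, adjusted p = 0.00456). *Slc43a1*, a transporter of branched-chain amino acids, was the negative one, at -1.21. Of 35 arginine and proline genes, *Pycr1*, which makes proline (1.83 ± 0.52, adjusted p = 0.0430), and *Nags*, which makes N-acetylglutamate (0.87), were positive and none negative, and the median was 0.03. Of 23 cytosolic aminoacyl-tRNA synthetases, *Vars* was called (1.17), and the median was 0.40 with 21 of 23 above 0. Without WT day 5 replicate 5 the positive counts were 4, 7 and 11 for these 3 lists, while over all genes tested the positive count went from 247 to 765. None of 17 mitochondrial synthetases was called, with a median of 0.04.

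Of 21 ER chaperones, 4 were positive and none negative, with a median of 0.53. *Hspa5*, the main ER chaperone BiP (chromosome 2: 34771970-34777547, plus strand), had 1941, 1910, 1897, 2198 and 1903 CPM in WT at day 2 and 1754, 1278, 1643, 1605 and 3090 CPM at day 5. Abcb10-null libraries had 1321, 1764, 1792, 1428 and 1284 CPM at day 2 and 3266, 2541, 2921, 3128 and 3891 CPM at day 5. All Abcb10-null libraries of day 5 were above those of day 2, and 4 of 5 WT day 5 libraries were below all of the Abcb10-null ones. The interaction was 1.12 ± 0.26 (log2, SE, adjusted p = 0.0153). *Hyou1*, a chaperone of the Hsp70 family, had an interaction of 1.02 ± 0.22 (adjusted p = 0.0118), and *Xbp1*, a transcription factor of the unfolded protein response, one of 0.72 ± 0.20 (adjusted p = 0.0386). *Creld2* was the last gene inside the threshold (0.61, adjusted p = 0.0497). Without 1 library, *Xbp1* was called in 11 and *Creld2* in 7 of 20 fits. Of the 4 kinases of eIF2, which slow translation in stress, *Eif2ak2* was called, at -0.67. The list's median was 0.02.

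**Figure D4:**
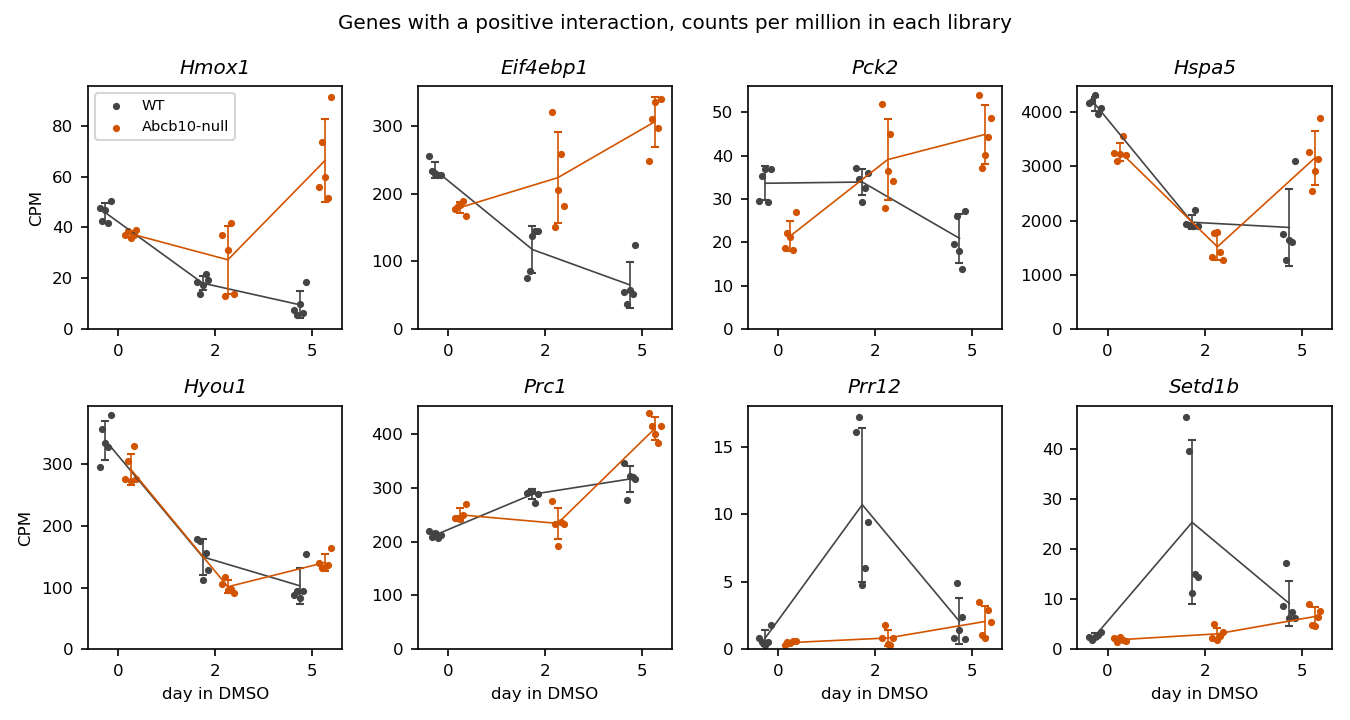
CPM in each library at days 0, 2 and 5 for 8 genes with a positive interaction, WT in grey and Abcb10-null in orange, with lines through the group means and bars of 1 SD (n = 5). *Hmox1* reaches 51.5 to 91.3 CPM in the Abcb10-null libraries of day 5, whereas *Prr12* and *Setd1b* differ by genotype mainly at day 2, where WT means are 10.7 and 25.4 CPM. Day 0 CPM were scaled separately from those of days 2 and 5.

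Of 42 DNA replication genes, 4 were negative (9.52%, against 2.94% of all genes tested) and none positive, with a median of -0.34. Of 36 mitosis genes, 4 were positive (11.1%, against 1.77% of all genes tested) and none negative. Their median was 0.18, with 12 of 36 below 0. The lists were not tested against each other. *Mcm6*, a subunit of the replicative helicase (chromosome 1: 128331590-128359664, minus strand), had 692, 740, 657, 806 and 672 CPM in WT at day 2 and 406, 279, 395, 342 and 367 CPM at day 5. Abcb10-null libraries had 830, 953, 1218, 938 and 737 CPM at day 2 and 189, 259, 277, 197 and 247 CPM at day 5. Both genotypes went down, and every Abcb10-null library ended below every WT library, with an interaction of -1.003 ± 0.20 (log2, SE, adjusted p = 0.00871). *Uhrf1*, which maintains DNA methylation behind the fork, and *Fen1*, the flap endonuclease, had -1.42 ± 0.31 (adjusted p = 0.0118) and -1.13 ± 0.22 (adjusted p = 0.00798), and *Cdc6* was called at -0.82.

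On the mitotic side, *Prc1*, which bundles microtubules of the spindle midzone (chromosome 7: 80294450-80316259, plus strand), had 290, 295, 295, 273 and 288 CPM in WT at day 2 and 346, 277, 322, 321 and 317 CPM at day 5. Abcb10-null libraries had 275, 233, 192, 237 and 234 CPM at day 2 and 441, 415, 401, 383 and 415 CPM at day 5. Abcb10-null libraries overlapped with WT at day 2 and were above them at day 5, with an interaction of 0.68 ± 0.14 (log2, SE, adjusted p = 0.0110). It shares 911 exon bases with *Rccd1* on the opposite strand. *Cdc20*, an activator of the anaphase-promoting complex, *Hmmr*, a spindle protein, and *Racgap1* had 0.72, 0.64 and 0.59. The call of *Cdc20* held in 6 and that of *Hmmr* in 15 of the 20 fits without 1 library. Of 19 G1 cyclins and CDK inhibitors, *Btg2*, which is antiproliferative, was called (-1.06). It went up in both genotypes, by 2.20 in WT and 1.15 in Abcb10-null cells.

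Among 61 replication-dependent histone genes, 7 were called, all negative and all of the H2B type, with a list median of -0.27. *Hist1h2bg* had means of 407 and 286 CPM for WT against 716 and 209 CPM for Abcb10-null cells at days 2 and 5 (interaction -1.26 ± 0.27, adjusted p = 0.0122), and *Hist1h2bb* 632 and 395 CPM against 835 and 220 CPM (-1.24 ± 0.33, adjusted p = 0.0324). The latter was called in 10 of the 20 fits without 1 library. *Hist1h2br* was at or under 3 counts in each Abcb10-null library of day 5, where its fitted fold change is no bound, and had means of 0.69, 2.59, 0.76 and 0.07 CPM in WT day 2, Abcb10-null day 2, WT day 5 and Abcb10-null day 5. The H2B genes are near-identical in coding sequence, so reads may be split or dropped among them and the single values are uncertain. Histone mRNAs mostly lack a poly(A) tail and are kept by the ribosomal depletion used here.

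Of 40 interferon-stimulated genes tested, 7 were negative and none positive, with a median interaction of -0.65, a median Abcb10-null to WT difference of 0.91 at day 2 and of 0.25 at day 5 (log2). *Rsad2*, an antiviral enzyme (chromosome 12: 26442746-26456452, minus strand), had 5.69, 5.96, 6.96, 4.79 and 5.56 CPM in WT at day 2 and 23.1, 15.6, 9.18, 16.4 and 10.5 CPM at day 5. Abcb10-null libraries had 29.3, 17.3, 51.3, 31.3 and 26.4 CPM at day 2 and 23.6, 34.7, 33.1, 18.9 and 18.4 CPM at day 5. WT libraries went up from a lower level and the genotypes overlapped at day 5, with an interaction of -1.64 ± 0.38 (log2, SE, adjusted p = 0.0153). The day 5 means were still 14.9 CPM for WT against 25.8 CPM for Abcb10-null cells. At day 0 the means were 4.63 CPM for WT against 138 CPM for Abcb10-null cells. *Xaf1*, a proapoptotic interferon target, and *Igtp*, an immunity-related GTPase, had -1.55 ± 0.33 (adjusted p = 0.0112) and -1.28 ± 0.27 (adjusted p = 0.0116) and differed in form. *Xaf1* had means of 2.71 and 6.86 CPM in WT at days 2 and 5, and of 8.46 and 7.32 CPM in Abcb10-null cells. For *Igtp* the WT means were 16.8 and 35.7 CPM and the Abcb10-null means 22.1 and 19.4 CPM, so that WT was the higher at day 5. *Ifih1*, *Herc6*, *Trim30a* and *Gbp7* were called at -0.86 to -1.19.

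Lipid synthesis was on the negative side in 4 of 29 sterol and fatty acid genes, with none positive and a median of -0.28. *Scd2*, a fatty acid desaturase (chromosome 19: 44293674-44306864, plus strand), had 1915, 1754, 1333, 1263 and 1708 CPM in WT at day 2 and 1472, 1455, 1309, 1315 and 227 CPM at day 5. Abcb10-null libraries had 302, 1859, 557, 326 and 936 CPM at day 2 and 110, 201, 155, 90.9 and 65.0 CPM at day 5. WT day 5 replicate 5 lay far below its group and Abcb10-null day 2 replicate 2 within the WT range, and the interaction was -2.21 ± 0.63 (log2, SE, adjusted p = 0.0443). *Idi1*, an enzyme of isoprenoid synthesis (-1.48 ± 0.35, adjusted p = 0.0183), *Stard4*, a cholesterol carrier (-1.30 ± 0.33, adjusted p = 0.0259), and *Nsdhl* (-0.78) were the others. *Scd2* was called in 4, *Stard4* in 12 and *Idi1* in 19 of the 20 fits without 1 library.

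**Figure D5:**
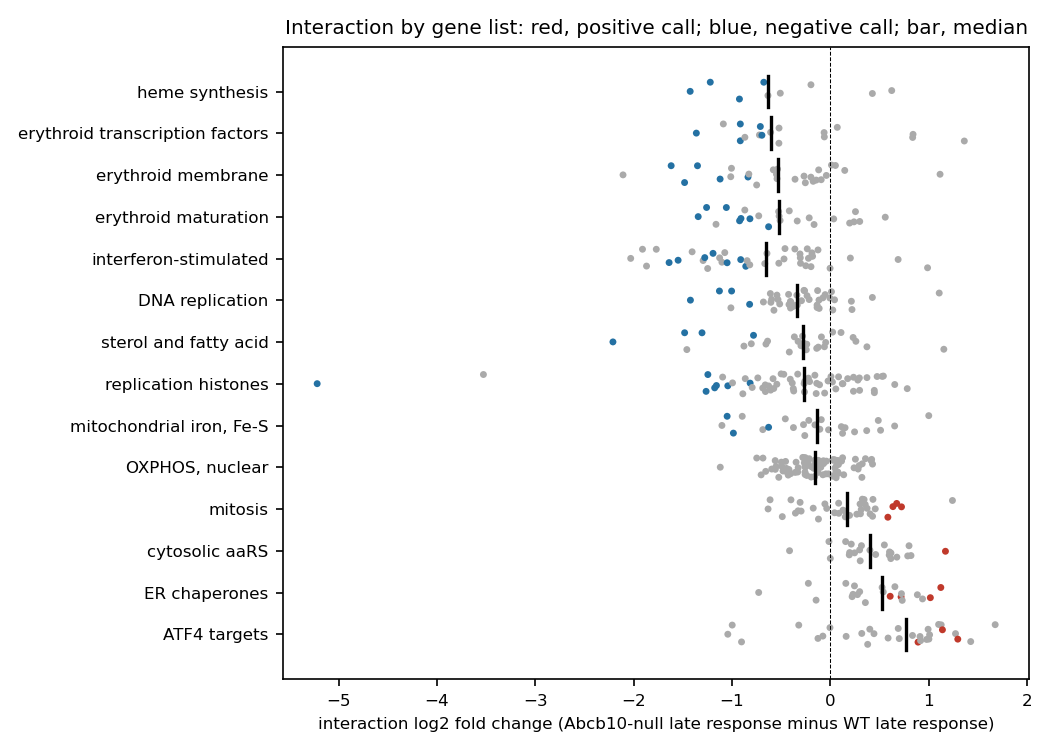
Interaction log2 fold changes (x axis) of the tested members of 14 gene lists, with called positive genes in red, called negative genes in blue, others in grey and the list median as a black bar. The medians run from -0.65 for interferon-stimulated genes to 0.77 for ATF4 targets, and in each of these 14 lists the called genes share 1 sign. The lists of cellular iron and heme handling and of amino acid transporters, which hold calls of both signs, are not drawn.

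For the respiratory and translation machinery, counts of called genes are to be read against 1.77% positive and 2.94% negative over all genes tested, so that 0 or 1 called member is no result about a list. None of 81 nuclear and none of 7 mitochondrial OXPHOS genes was called by edgeR, with medians of -0.16 and -0.81 and with 12 and 2 genes at an unadjusted p under 0.05. DESeq2 called 3 of the 81 negative and none of the 7. Likewise none of 26 glycolysis genes (median 0.39, 4 at an unadjusted p under 0.05, 1 by DESeq2), 18 TCA cycle genes (0.00, 3 and 1) and 14 genes of the Bcl2 family (-0.15, 4 and 2) was called. Of 80 cytosolic ribosomal proteins, *Rpl10a* was called positive, 75 of 80 had a value above 0 and the median was 0.36. Of 78 mitochondrial ribosomal proteins, *Mrps18a* was called negative, and the median was -0.05. *Nop2* and *Mybbp1a* were positive among 30 genes of ribosome biogenesis, where 28 of 30 were above 0 and the median was 0.37. Single calls came from *Nqo1*, a quinone reductase among 22 NRF2 targets (-1.70), *Sqstm1*, an autophagy receptor among 23 autophagy genes (0.84), and *Ikzf1*, among 11 progenitor factors (-0.75). The medians of those lists were -0.06, 0.11 and 0.37.

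The negative genes with the largest contrasts lay mostly outside these lists. *S100a4*, a calcium-binding protein of motile cells (chromosome 3: 90603771-90606045, plus strand), had 5.69, 8.53, 9.86, 8.96 and 9.56 CPM in WT at day 2 and 15.7, 11.5, 14.3, 13.3 and 8.88 CPM at day 5. Abcb10-null libraries had 5.05, 10.98, 12.7, 6.18 and 9.52 CPM at day 2 and 1.53, 0.703, 1.28, 1.13 and 0.473 CPM at day 5. The genotypes overlapped at day 2 and at day 5 the highest Abcb10-null value was below the lowest WT value, with an interaction of -3.68 ± 0.40 (log2, SE, adjusted p = 6.63e-05), the lowest adjusted p of the 13956 genes. *Arrdc3*, an arrestin domain protein, had means of 29.1 and 126 CPM for WT against 43.0 and 37.4 CPM for Abcb10-null cells at days 2 and 5 (-2.31 ± 0.37, adjusted p = 0.00222). *Serpinb9b*, a protease inhibitor, *Apol8* and *Fam198b* had -3.08, -2.92 and -2.54 (adjusted p = 0.0101, 0.0153 and 0.0122). *Mns1*, a structural protein of motile cilia, had -2.44 (adjusted p = 0.00456) and shares 2842 exon bases with *Tex9* on the opposite strand. *Slfn14*, a Schlafen protein known in the platelet and red cell lineages, had -2.44 (adjusted p = 0.0184) and the interferon-inducible *Ifi27l2a* -2.44 (adjusted p = 0.0407), the last called in 7 of the 20 fits without 1 library.

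The positive genes named for the largest contrasts, *Mid1* included, had their highest group mean in WT cells at day 2. *Prr12* (chromosome 7: 45027563-45052881, minus strand) had 16.1, 17.2, 4.76, 5.99 and 9.45 CPM in WT at day 2 and 0.832, 4.86, 1.43, 2.39 and 0.724 CPM at day 5. Abcb10-null libraries had 0.833, 1.80, 0.370, 0.306 and 0.789 CPM at day 2 and 3.52, 1.02, 0.813, 2.89 and 1.97 CPM at day 5. WT was above Abcb10-null cells in every library of day 2, most in replicates 1 and 2, and the genotypes overlapped at day 5. The interaction was 3.66 ± 0.78 (log2, SE, adjusted p = 0.0112), and without WT day 2 replicates 1 and 2 it was 3.02 (adjusted p = 0.0624). *Setd1b*, a histone H3 lysine methyltransferase, had 46.5, 39.7, 11.2, 15.1 and 14.5 CPM in WT at day 2 while the Abcb10-null libraries of that day had 2.16, 5.05, 1.90, 2.69 and 3.47 CPM. The interaction of this gene was 2.56 ± 0.55 (adjusted p = 0.0117), and 1.68 (adjusted p = 0.0679) without those libraries.

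*Mbd6*, *Arhgap33*, *Ntng2*, *Necab3* and *Pitpnm2* had interactions of 3.01, 2.77, 2.64, 2.46 and 2.36 (adjusted p = 0.0123, 0.0153, 0.0375, 0.0221 and 0.0194). *Ntng2* was called in 8 of the 20 fits without 1 library, and its adjusted p was 0.102 with GC and length offsets. *Mid1*, a ubiquitin ligase on chromosome X, was at or under 3 counts in each Abcb10-null library of day 2, so its fitted fold change depends on the prior count and is not given. It had 4.86 to 14.5 CPM in WT at day 2, 4.24 to 9.54 CPM in WT at day 5 and 0.0639 to 1.13 CPM in Abcb10-null cells at day 5, and its adjusted p was 0.0153. It shares 951 exon bases with *G530011O06Rik* on the opposite strand, which had a mean of 39.0 CPM. Without WT day 2 replicates 1 and 2, the adjusted p of these 8 genes with the largest positive interaction were 0.0624 to 0.186, and all kept their sign.

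Nearest to the threshold, *Rexo2* (-0.72, adjusted p = 0.0497) and *Creld2* were just inside and *Metap2* (-0.62, adjusted p = 0.0501) and *Josd2* (-0.69, adjusted p = 0.0501) just outside.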

How the data were processed

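Total RNA of MEL cells was depleted of ribosomal and globin RNA and made into stranded libraries by the authors, who used STAR 2.6.1b for alignment to GRCm38 and featureCounts 1.6.3 for counting over Ensembl genes. The deposited values are raw counts per gene and library, not normalized. How the counting treated strand and multiply mapped reads is not given in the sources used here. Gene names and coordinates came from a GENCODE annotation of the same build, in which 37 gene identifiers, holding 0.0116% of counts, were not found.

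Groups came from the sample labels. The 20 libraries of days 2 and 5 were fitted together with one mean per group (R 4.3.3, edgeR 4.0.16: filterByExpr, TMM, glmQLFit, glmQLFTest), and the contrast (Abcb10-null day 5 - day 2) - (WT day 5 - day 2) was tested for each gene with Benjamini-Hochberg adjustment at 0.05. An SE is the log2 fold change divided by the square root of its F statistic. CPM were computed from the deposited counts over the TMM-scaled library size. For days 2 and 5 the factors and library sizes were those of the main fit of 20 libraries. For day 0 the factors came from all 30 libraries and the library sizes from all genes. Day 0 CPM are thus not on exactly the same scale as the others. Replicates differed by more than counting error in every group (lowest chi-square per degree of freedom 6.48), and p-values measure the spread between these libraries. The test treats the libraries of a group as independent, though some lay closer to each other than to the rest. WT day 2 replicates 1 and 2 stood at 6.78, against 76.8 to 88.1 with the others. WT day 5 replicates 1, 3 and 4 stood at 6.48 to 11.6 among themselves. Library totals of 9906783 to 19616273 counts put 3 counts, taken as the floor, under 1 CPM.

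The members and the 33 gene lists were chosen with earlier results of these data known. The genes named are the 8 largest interactions in each direction (called, at least 5 CPM in 1 group, same sign whichever library is left out, a proper symbol), up to 3 called genes of each list with at least 3, *Abcb10*, and 2 genes on each side of the threshold. Further list members are named to account for a list. Some genes that the rule or a list holds are not reported here. Alternatives were DESeq2 1.42.0, DESeq2 size factors, other filters on low counts, all 30 libraries, no mitochondria-encoded, globin or small RNA genes (6138 genes), a replicate block, each library left out, and, chosen after seeing the data, GC and length offsets and the removal of libraries that stood apart. The steps were tested on simulated data. There edgeR called 38 of 100 genes changed by 1 on the log2 scale and 85 of 100 changed by 2. Of 13751 unchanged genes it called 11. A gene without a call may therefore still differ between genotypes.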

Additional observations from a re-analysis of the deposited data

Results flagged for a closer look

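The late response differed between genotypes, by the interaction test itself, in the 247 genes with a positive and the 410 genes with a negative interaction.

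Among 236 pairs of a named gene and a group of 5 libraries, 21 held a library far from the other 4, by a gap over 0.71 of the group's range (Dixon's test at 5%). Chance flags about 1 in 20 groups. WT day 5 replicate 5 accounts for 8 of the 21: *Tfrc* (2540 CPM, others 8196 to 9896), *Cpox* (241, others 682 to 801), *Hemgn* (302, others 528 to 567), *Isca1* (123.05, others 165 to 181), *Scd2* (227, others 1309 to 1472), *Eif4ebp1* (125, others 37.8 to 57.8), *Hspa5* (3090, others 1278 to 1754) and *Hyou1* (154, others 83.4 to 94.6). In each of these it lay toward the Abcb10-null day 5 libraries, while its *Abcb10* level was that of WT.

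WT day 5 replicate 2 was high in *Mbd6* (5.39 CPM, others 1.13 to 2.30) and *Setd1b* (17.2, others 6.22 to 8.55). Abcb10-null day 2 replicate 2 was high in *Arhgap33* (1.80) and *Pitpnm2* (7.48) and low in *Nfe2* (39.8). Abcb10-null day 2 replicate 3 was high in *Abcb10* (314 CPM, others 165 to 190) and replicate 5 in *Aqp1* (440) and *Hist1h2bb* (1202). At day 5, Abcb10-null replicate 4 was high in *Arhgap33* (3.82) and replicate 5 in *Slfn14* (15.4) and *Hyou1* (164). At day 2, WT replicate 4 was high in *Hspa5* (2198) and WT replicate 1 low in *Igtp* (13.5). The cause of these single values was not tested.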

How the results depend on the processing

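All 657 called genes kept the sign of their interaction in each fit in which they were tested, and the number of genes past the threshold moved. For positive and negative genes in turn, DESeq2 called 491 and 744 (past 0.58, 460 and 608). All genes with at least 1 count gave 424 and 329 (424 and 329), and all 30 libraries in one fit gave 727 and 978 (659 and 759). Of the 657, DESeq2 called 246 and 410, the fit of all genes with at least 1 count 180 and 209, and that of all 30 libraries 247 and 410. Without WT day 2 replicates 1 and 2 there were 59 and 107 (59 and 107 past 0.58). Without these and WT day 5 replicate 5 there were 622 positive (615 past 0.58) and 406 negative genes. With the replicate block 313 positive and 372 negative genes were called, of which 213 and 354 were among the 657. Labels give no pairing behind the numbers, and over 30 same-numbered pairs the correlation of deviations from group means was -0.289 to 0.468 (median -0.0522, 7 over 0.1), with 5 of the 20 libraries correlating best with their own number. DESeq2 size factors, a minimum of 10 counts in every library, and leaving out mitochondria-encoded, globin and small RNA genes kept all 4 counts within 1.5 times.

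Leaving out single libraries gave 102 (WT day 5 replicate 4) to 765 (WT day 5 replicate 5) positive genes, 102 to 736 past 0.58, and 171 (Abcb10-null day 2 replicate 3) to 587 (WT day 5 replicate 5) negative genes, 169 to 547 past 0.58. The positive count fell by over 1.5 times without WT day 2 replicates 1 (138) and 2 (124), WT day 5 replicates 1 (126), 3 (129) and 4 (102), Abcb10-null day 2 replicate 3 (117) and Abcb10-null day 5 replicates 1 (145), 4 (161) and 5 (149), and it grew without Abcb10-null day 2 replicate 2 (475). The negative count fell likewise without WT day 2 replicates 1 (221), 2 (196), 4 (210) and 5 (214), WT day 5 replicates 1 (181), 3 (242) and 4 (173), Abcb10-null day 2 replicate 3 (171) and Abcb10-null day 5 replicates 1 (245) and 5 (177). In every one of these 20 fits, 94 positive and 141 negative genes were called. Of the 1180 values for named genes without 1 library, 201 lost the call and none changed sign. A fit with 19 libraries has less power by construction. The cause of the larger shifts was not tested.

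Among the list medians, 39 of 1049 moved by more than 1 SD between replicates. Without WT day 2 replicates 1 and 2 the sign turned for mitochondrial iron genes (0.05), mitochondrial ribosomal proteins (0.13), nuclear OXPHOS genes (0.06), eIF2 kinases (-0.07) and the chromatin genes below (-0.08). With GC and length offsets it turned for autophagy genes (-0.08) and eIF2 kinases (-0.03). Without single libraries it turned, with values from -0.05 to 0.04, for arginine and proline genes, mitochondrial synthetases, eIF2 kinases, TCA cycle genes, NRF2 targets, the Bcl2 family and mitochondrial ribosomal proteins, among them NRF2 targets (0.01) and mitochondrial ribosomal proteins (0.03) without WT day 5 replicate 5. The motif shares of genes past 0.58 stayed within their intervals. Less stable were the shares of called genes that went up or down past 0.58 in a genotype. Under the alternatives they moved outside their 95% Wilson intervals in 44 comparisons and stayed within them in 76. With 1 library left out these numbers were 30 and 50. Without WT day 2 replicates 1 and 2, all 4 shares moved.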

Other observations

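A further group was seen among the negative genes after their values were known. Of 49 genes tested for intraflagellar transport, the BBSome and the base of the cilium, 13 had a negative interaction and 1 (*Ofd1*, 1.07) a positive one, with a median of -0.50. The late changes had medians of -0.04 in WT and -0.57 in Abcb10-null cells. *Wdr35* (-1.74), *Ttc26* (-1.56), *Lztfl1* (-1.51), *Rpgrip1l* (-1.46) and *Cep290* (-1.27) were the 5 lowest. With GC and length offsets, 11 were negative and 1 positive. The list was chosen on these values and has no test.

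Of 58 chromatin genes chosen in the same way, 8 were positive (*Mbd6*, *Setd1b*, *Kmt2d*, *Kdm6b*, *Dot1l*, *Kmt2b*, *Chd3* and *Kdm4b*) and 3 negative (*Ezh2*, *Mbd4* and *Mbd2*). Their median was 0.22, and -0.08 without WT day 2 replicates 1 and 2.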
